A study of Mus musculus with 8 samples.

Results

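The genes described here are 31 of the 54838 genes in the count tables of a series on mouse skin epidermis, and they belong to antigen presentation and to the response to interferon gamma. They were taken by name, with earlier results of these data known: 14 genes of the MHC class I pathway, 7 of the MHC class II pathway and 10 that interferon gamma is known to induce. All 31 were matched by identifier, and all 31 had enough counts in the 8 libraries to be tested, as did 17839 genes in all.

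Epidermis, isolated from mouse skin with trypsin, was sequenced from mice labelled control and mice labelled Ovol1/2 iDKO, at 25 DPI and at 52 DPI, with 2 biological replicates in each of the 4 groups. The abbreviations iDKO and DPI stand as the labels give them. The sources used here give no agent, age, strain, promoter or cell type that drives the Ovol1/2 modification, and no treatment shared by all groups. Levels are CPM, that is counts divided by the TMM-scaled library size, and always stand in the order replicate 1, replicate 2, with control before the libraries labelled iDKO.

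MHC class I molecules sit on nearly every nucleated cell and show CD8 T cells peptides that the proteasome cuts in the cytosol, that the TAP transporter moves into the endoplasmic reticulum and that B2m, the light chain, holds together with the heavy chain. MHC class II molecules show peptides of ingested proteins to CD4 T cells, and in resting epidermis they are carried mainly by Langerhans cells, the resident antigen-presenting cells. Interferon gamma, a product of T and NK cells, signals through its receptor and the kinases Jak1 and Jak2, and is known to induce class I, class II in keratinocytes, and further genes such as Irf1, Cxcl9, Cxcl10, the guanylate-binding proteins and Icam1.

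The promoters of these genes carry short elements through which the 3 classes are known to be controlled, and the following stretches are shown as examples of these elements in class II and inducible genes. They come from RefSeq (GRCm38.p6), whose table had a window at the start of 12 of the 14 class I, 4 of the 7 class II and 10 of the 10 inducible genes. Capitals mark matches on either strand to CCAAT, the Y box bound by NF-Y, or to TGACG, the core of the X2 box, in H2-Aa and H2-Eb1. In Irf1 and Icam1 they mark TTCNNNGAA, the gamma-activated site, and in Cxcl10, Gbp2, Gbp5 and Socs1 a pair of GAAA with any 2 bases between, the core of the interferon-stimulated response element bound by factors of the Irf family. Matches to TGACG on both strands overlap in H2-Aa, and matches to the spaced GAAA pair overlap in Socs1.
H2-Aa (chr17:34287864-34287953, minus strand): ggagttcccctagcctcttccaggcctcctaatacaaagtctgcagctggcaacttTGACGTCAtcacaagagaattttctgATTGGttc
H2-Eb1 (chr17:34305737-34305826, plus strand): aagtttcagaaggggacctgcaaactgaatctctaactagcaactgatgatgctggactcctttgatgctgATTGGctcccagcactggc
Irf1 (chr11:53769909-53769948, plus strand): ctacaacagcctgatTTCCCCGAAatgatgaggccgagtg
Icam1 (chr9:21015883-21015922, plus strand): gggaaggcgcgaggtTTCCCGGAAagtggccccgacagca
Cxcl10 (chr5:92349078-92349117, minus strand): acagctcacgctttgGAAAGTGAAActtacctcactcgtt
Gbp2 (chr3:142620589-142620628, plus strand): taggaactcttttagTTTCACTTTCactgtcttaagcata
Gbp5 (chr3:142496754-142496793, plus strand): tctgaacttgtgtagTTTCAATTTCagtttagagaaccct
Socs1 (chr16:10785592-10785631, minus strand): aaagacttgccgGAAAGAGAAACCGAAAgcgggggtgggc

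The spaced GAAA pair was found in 6 of the 10 inducible windows, in 4 of the 12 class I windows and in 0 of the 4 class II windows, against 3.99% of all 27025 genes with a window. TTCNNNGAA was found in 4 of 10, 1 of 12 and 0 of 4, against 9.55%. CCAAT was found in 4 of 4 class II, 7 of 12 class I and 5 of 10 inducible windows, against 41.1%, and TGACG in 1, 6 and 0, against 23%. A match is a description of letters in the window, and no letters were tested for binding.

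The libraries held 9824307 to 50711381 counts. The second strand took 95.4% to 95.7% of stranded counts in replicate 2 and 49.8% to 49.97% in replicate 1, and libraries of equal time and replicate number are therefore compared as 4 pairs. Ovol1 and Ovol2, the genes named in the label, had more and not fewer CPM in the library labelled iDKO of all 4 pairs, so the label was unchecked by these genes and every direction below is that of the libraries labelled iDKO. The Y-linked transcripts Ddx3y, Uty, Kdm5d and Eif2s3y were found in all 4 libraries at 25 DPI and were at 0 in all 4 at 52 DPI. Time and sex can therefore not be told apart, also where differences between the labels are compared between the times. The library of control 25 DPI replicate 1 stood apart in immune and pigment cell transcripts, which are given with the class II genes.

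None of the 31 members was called between libraries labelled iDKO and control by edgeR's quasi-likelihood test, at 25 DPI, at 52 DPI, across both times or in the difference between times. The share called of all 17839 genes was 0% in each of these 4 comparisons, with 75, 143, 130 and 139 genes and 0 members at an unadjusted p under 0.05. DESeq2 in the same design called 2, 1, 8 and 0 genes, none of them a member. With the replicate number within time as a block, which compares the libraries pair by pair, edgeR called 0 members (0%, 0%, 0.00561% and 0% of all genes). DESeq2 with this block called 1 member, Icam1, at 25 DPI (0.538% of all genes) and 1 member, again Icam1, in the difference between times (0.213%). It called 0 members at 52 DPI (0.196%) and across both times (0.392%).

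Within each pair the class II genes shared a direction, except H2-DMb1 in the 52 DPI replicate 2 pair, while the medians of the class I genes stayed near 0 and those of the inducible genes were highest in the pairs 25 DPI replicate 2 and 52 DPI replicate 1. The median ratio of the library labelled iDKO to control, on the log2 scale with 0.5 CPM added to both, was -1.03, 1.83, 1.17 and 0.99 over the 7 class II genes in the pairs 25 DPI replicate 1, 25 DPI replicate 2, 52 DPI replicate 1 and 52 DPI replicate 2. Over the 14 class I genes it was -0.23, 0.12, 0.24 and -0.11, and over the 10 inducible genes 0.36, 0.83, 0.84 and -0.01. The same median over all genes tested was 0.00, -0.01, 0.00 and -0.03.

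**Figure D1:**
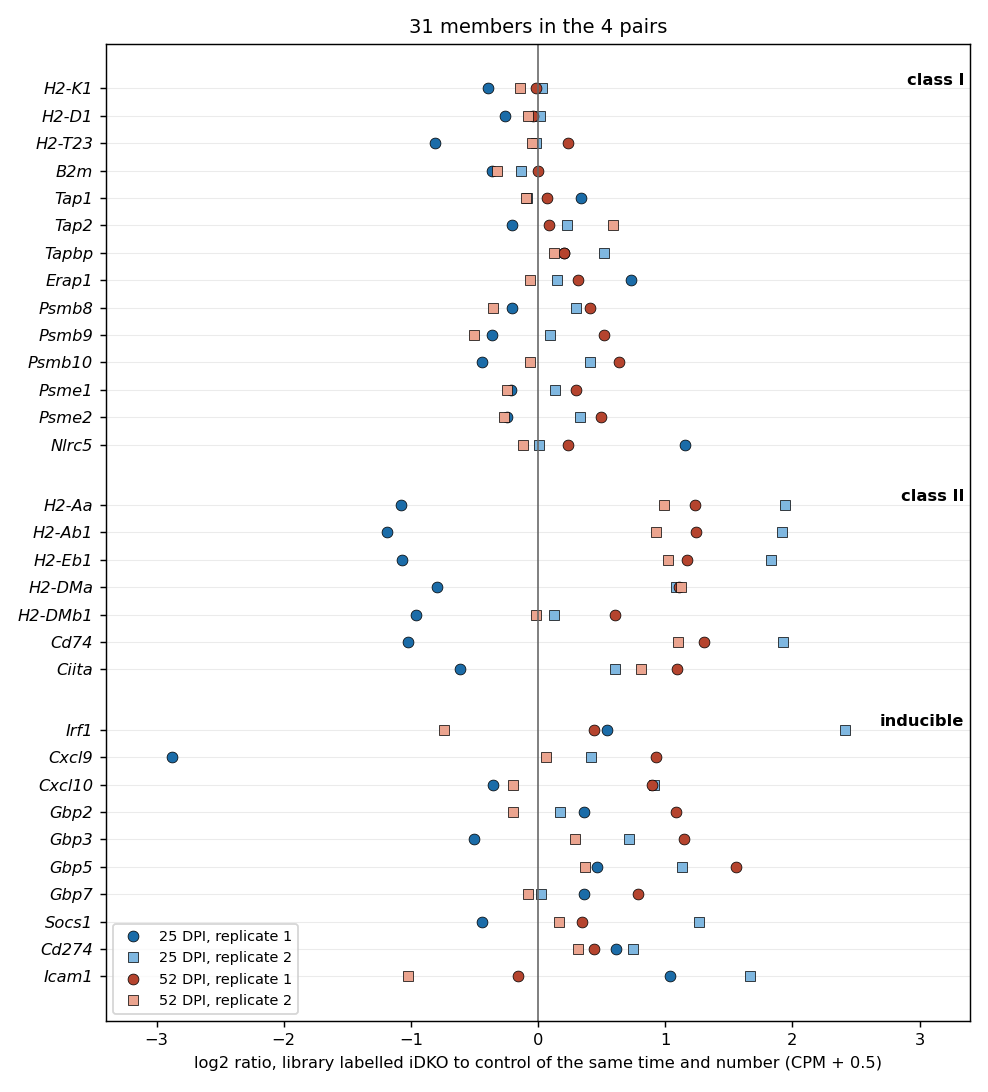
Log2 ratio of the library labelled iDKO to control (x axis, CPM with 0.5 added) for each of the 31 members (y axis, by class), with 4 points per gene, 1 for each pair. All 7 class II genes lie left of 0 in the 25 DPI replicate 1 pair and right of 0 in the 25 DPI replicate 2 and 52 DPI replicate 1 pairs.

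Tapbp, Gbp5 and Cd274 were higher in the library labelled iDKO of all 4 pairs, and B2m was lower in all 4. Over all genes tested 6.73% were higher and 6.7% lower in all 4 pairs, so 3 and 1 of 31 members lay near that background.

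The heavy chains of class I were abundant in every library, and their levels differed more between replicate numbers than between labels. H2-K1 was at 3776 and 2247 (control) against 2868 and 2297 CPM (labelled iDKO) at 25 DPI, and at 2711 and 1999.6 against 2678 and 1815 CPM at 52 DPI. H2-D1, another classical heavy chain, was at 4739.7 and 1560.1 against 3953 and 1580.2 CPM, and then at 2946 and 1453 against 2869.8 and 1378 CPM. In each group the replicate 1 library was the higher, and the ranges of the 2 labels overlapped at both times. Heavy chain genes are alike in sequence, so counts split between them are uncertain. The non-classical heavy chain H2-T23, which presents signal peptides to NK cell receptors, was at 744 and 215 against 425 and 212 CPM at 25 DPI and at 301 and 214 against 355 and 207 CPM at 52 DPI. Its highest value was that of control 25 DPI replicate 1, the library labelled iDKO of that pair had a ratio of 0.571, and in the other 3 pairs the ratio was 0.965 to 1.18. The edgeR log2 fold changes at 25 and then 52 DPI were -0.22 and -0.07 for H2-K1 (SE 0.64 for each) and -0.59 and 0.13 for H2-T23 (SE 0.74 for each).

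B2m, the light chain (GRCm38 chromosome 2, 122147686 to 122153083, plus strand), was at 5118 and 1456 (control) against 3978 and 1326 CPM (labelled iDKO) at 25 DPI. At 52 DPI it was at 2063 and 1426 against 2059 and 1138 CPM. The library labelled iDKO was the lower of each pair, with ratios of 0.777, 0.911, 0.998 and 0.798, but the ranges of the 2 labels overlapped at both times. By edgeR the log2 fold change of B2m across both times was -0.22 (SE 0.56, adjusted p = 1.00), and with the replicate block -0.21 (SE 0.18, adjusted p = 0.996). Per kilobase of exon B2m was the most abundant member, with a median of 2046 CPM per kb over the 4 control libraries, against 874 for H2-D1 and 844 for H2-K1, 89.2 for H2-T23 and 103 for Cd74, the highest of class II. Nlrc5, the transactivator of class I genes, was at 22.04 CPM per kb and Ciita, that of class II genes, at 0.245.

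**Figure D2:**
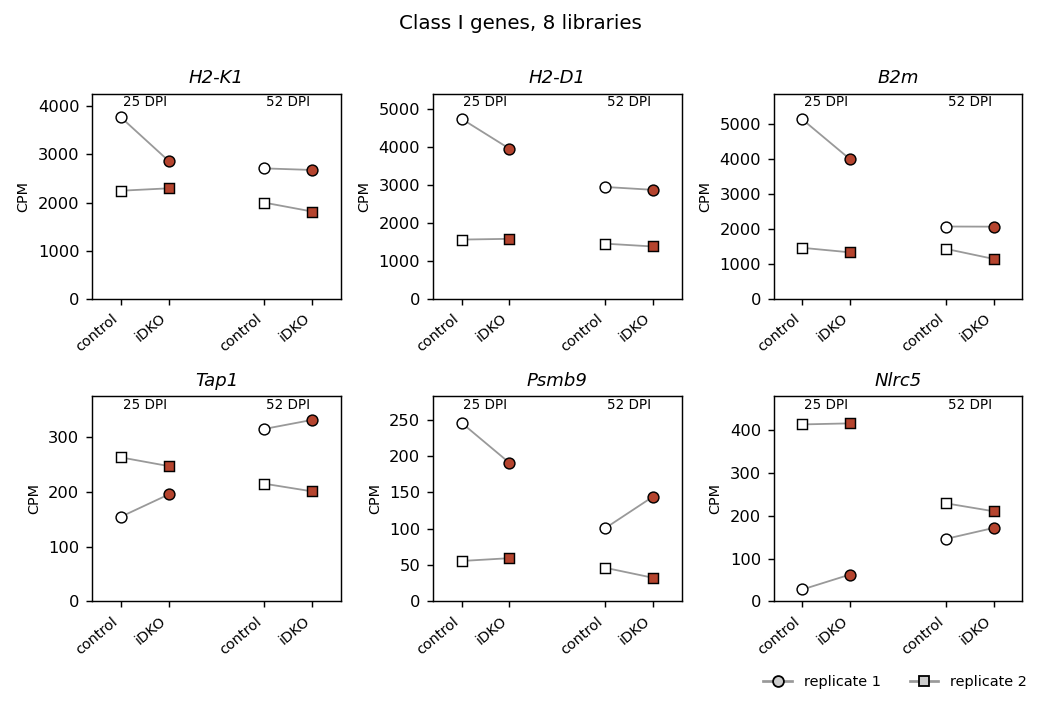
CPM (y axes, linear, each from 0) of 6 class I genes in the 8 libraries, by label and time on the x axis; circles are replicate 1, squares replicate 2, filled points are libraries labelled iDKO and grey lines join the pairs. The replicate 1 points lie above the replicate 2 points for H2-K1, H2-D1, B2m and Psmb9 and below them for Nlrc5.

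The genes that load peptides showed small ratios. Tapbp, the tapasin chaperone that holds class I molecules to the transporter, was at 231 and 148 (control) against 266 and 212 CPM (labelled iDKO) at 25 DPI, and at 319 and 153 against 368 and 167 CPM at 52 DPI. It was the higher of each pair by 1.15, 1.43, 1.15 and 1.09 times, with a log2 fold change across both times of 0.26 (SE 0.15) under the block (edgeR, adjusted p = 0.996). Tap2, a subunit of the transporter, was at 70.7 and 67.1 against 61.1 and 78.7 CPM and at 102 and 53.1 against 108 and 80.1 CPM, with ratios of 0.865 to 1.503. The other subunit, Tap1, spanned 155 to 332 CPM over the 8 libraries with ratios of 0.935 to 1.26. Erap1, the aminopeptidase that trims peptides, was at 30.6 and 102 against 51.2 and 113 CPM at 25 DPI and at 81.1 and 87.4 against 101 and 83.8 CPM at 52 DPI. The control and iDKO ranges of each of these 4 genes overlapped at both times. Exons of Tap1 and Psmb9 overlap on opposite strands by 212 bp. Those of Tap2, Tapbp, Erap1, Psmb8, Psme1, Nlrc5, H2-DMa, Cd74, Ciita, Irf1, Cxcl10, Gbp2, Gbp7 and Cd274 overlap other genes by 12 to 1053 bp. The levels use counts regardless of strand, so reads there were not told apart by strand in any library. Strand could tell them apart only in the replicate 2 libraries, and not for Cd74, Gbp7 and a stretch of Tapbp, whose partners lie on the same strand.

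The inducible proteasome subunits shared their direction within each pair, higher in some pairs and lower in others. Psmb8 was at 181 and 55.9 (control) against 157 and 68.9 CPM (labelled iDKO) at 25 DPI, and at 90.6 and 51.5 against 120.1 and 40.2 CPM at 52 DPI. Psmb9 was at 246 and 55.7 against 191 and 59.6 CPM, and then at 101 and 46.4 against 144 and 32.6 CPM. Psmb10 was at 125 and 33.8 against 92.3 and 44.8 CPM, and then at 43.7 and 21 against 68.2 and 20.1 CPM. These 3 catalytic subunits replace constitutive ones in the immunoproteasome, and all 3 had ratios under 1 in the pairs 25 DPI replicate 1 and 52 DPI replicate 2 and over 1 in the other pairs. The activator subunits Psme1 and Psme2, at 88.8 to 364 and 85.4 to 573 CPM, had the same directions in each pair. Constitutive Psmb5, Psmb6 and Psmb7 shared these directions except in the 52 DPI replicate 2 pair, where they were higher in the library labelled iDKO. Summed counts of Psmb8, Psmb9 and Psmb10 over those of the constitutive Psmb5, Psmb6 and Psmb7 gave ratios of 0.636 and 0.890 (control) against 0.704 and 0.916 (labelled iDKO) at 25 DPI. At 52 DPI they were 0.926 and 0.616 against 1.15 and 0.459, so the ratio was higher in the library labelled iDKO of 3 pairs and lower in the 52 DPI replicate 2 pair.

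Nlrc5, the class I transactivator (GRCm38 chromosome 8, 94434356 to 94527272), had the widest fold range of the class over the 8 libraries. It was at 28.0 and 412 (control) against 62.8 and 415 CPM (labelled iDKO) at 25 DPI, and at 146 and 229 against 171 and 210.0 CPM at 52 DPI. The ratio was 2.22 in the 25 DPI replicate 1 pair and 0.919 to 1.18 in the other 3 pairs. Nlrc5, Erap1 and Tap1 are the members of the class with at least 5100 bp of exon, and their ratios in the 25 DPI replicate 1 pair were 2.22, 1.66 and 1.26. The 4 members with at most 2563 bp, B2m, Psmb10, Psme1 and Psme2, had ratios of 0.777, 0.737, 0.862 and 0.846 in that pair. Over 17828 genes with a length, the log2 ratio of that pair had a Spearman correlation of 0.27 with exon length, and a median of -0.19 over genes up to 2563 bp and 0.30 over genes from 5100 bp, while in the other 3 pairs the correlation was -0.12 to 0.06. The part of length in the class I ratios was not tested.

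Counted over the class by edgeR's log2 fold changes, 5 class I genes were higher and 9 lower at 25 DPI (median -0.13, against -0.03 over all genes tested), and 11 higher and 3 lower at 52 DPI (0.13 against -0.01). The 25 DPI median was 0.71 without control replicate 1 and -0.71 without iDKO replicate 1, and the 52 DPI median was 0.48 without iDKO replicate 2 and -0.49 without iDKO replicate 1. None of the 14 had both libraries labelled iDKO above or both below both control libraries at either time. The shares of all genes were 5.39% above and 5.15% below at 25 DPI and 11.9% and 10.2% at 52 DPI, so few of 14 genes would do so at the background rate.

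The class II genes were higher in the libraries labelled iDKO at 52 DPI and split by pair at 25 DPI. For H2-Aa, H2-Ab1, H2-Eb1, H2-DMa, Cd74 and Ciita both libraries labelled iDKO lay above both control libraries at 52 DPI, which is 6 of 7 members, where 11.9% of all genes tested did so and 10.2% showed the reverse. At 25 DPI 0 of the 7 had such an order in either direction, against 5.39% above and 5.15% below over all genes tested. None of these genes passed the test over all genes.

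The chains of the class II molecules followed each other closely. H2-Ab1, the beta chain of the A molecule (GRCm38 chromosome 17, 34257689 to 34269419, plus strand), was at 299 and 24.5 (control) against 131 and 94.1 CPM (labelled iDKO) at 25 DPI, and at 126 and 91.4 against 299 and 174 CPM at 52 DPI. H2-Aa, the alpha chain of the same molecule, was at 171 and 22.9 against 80.4 and 89.4 CPM, and then at 60.9 and 78.0 against 144 and 156 CPM. H2-Eb1, the beta chain of the E molecule, was at 162 and 26.8 against 76.9 and 96.8 CPM, and then at 71.5 and 86.2 against 162 and 175 CPM. For all 3 chains the 25 DPI control libraries held both the lowest value of the 8 and a value at or near the highest, and the ratio was 0.439 to 0.476 in the replicate 1 pair and 3.56 to 3.84 in the replicate 2 pair. At 52 DPI the ratios were 1.90 to 2.37.

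Cd74, the invariant chain that guides class II molecules to the endosome and fills their groove, was at 426 and 47.2 (control) against 209 and 181 CPM (labelled iDKO) at 25 DPI, and at 205 and 140.1 against 508 and 301 CPM at 52 DPI. Its ratios were 0.491, 3.81, 2.47 and 2.14, and at 52 DPI its groups did not overlap. H2-DMa, a chain of the exchanger that swaps the Cd74 fragment for peptide, was at 30.5 and 5.66 against 17.3 and 12.6 CPM and at 12.5 and 8.70 against 27.5 and 19.5 CPM, with ratios of 0.575, 2.12, 2.16 and 2.17. Its partner H2-DMb1 did not follow at 52 DPI: it was at 53.0 and 11.3 against 27.0 and 12.3 CPM, and then at 16.8 and 16.8 against 25.9 and 16.6 CPM, with a ratio of 0.991 in the 52 DPI replicate 2 pair. Ciita, the master transactivator of class II genes (GRCm38 chromosome 16, 10480059 to 10528418), was low, at 1.83 and 1.93 against 1.03 and 3.19 CPM at 25 DPI and at 3.04 and 2.74 against 7.03 and 5.17 CPM at 52 DPI. These rest on 9 to 224 counts of Ciita per library, and its ratios were 0.655, 1.52, 2.13 and 1.75.

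**Figure D3:**
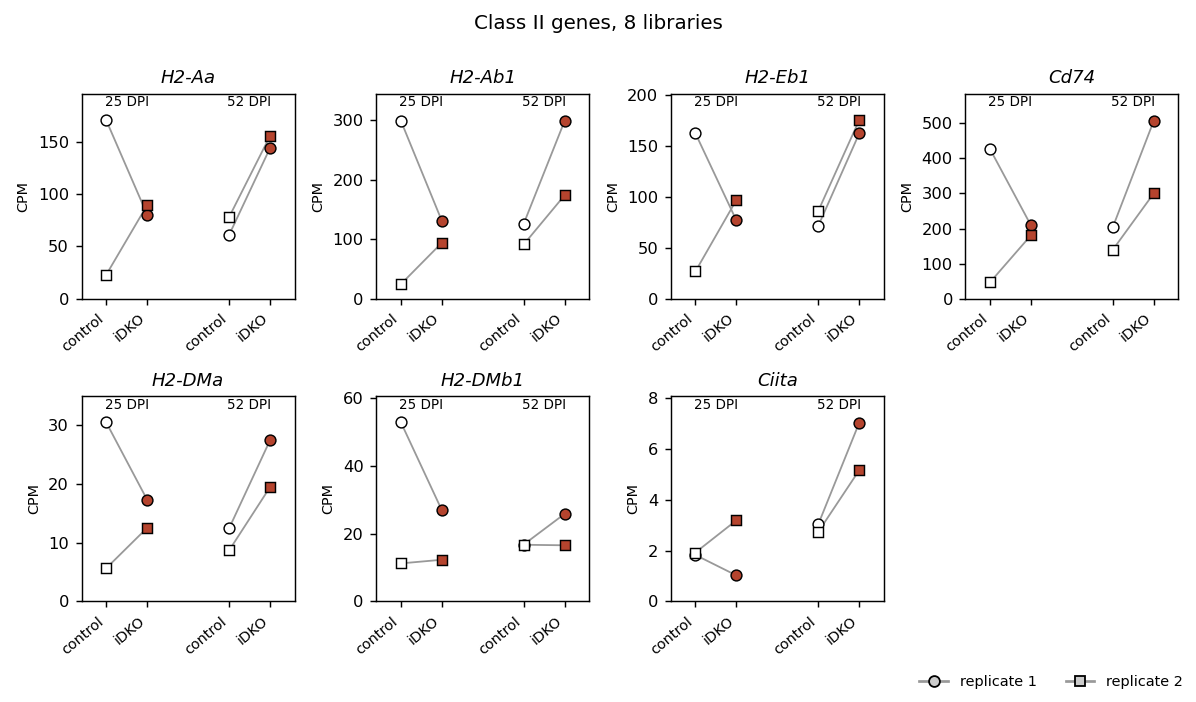
CPM (y axes, linear, each from 0) of class II genes in the 8 libraries, by label and time; circles are replicate 1, squares replicate 2, filled points are libraries labelled iDKO and grey lines join the pairs. At 25 DPI the replicate 1 line falls and the replicate 2 line rises in each panel, and the lines cross for H2-Aa and H2-Eb1. At 52 DPI both lines slope upward for H2-Ab1, Cd74 and Ciita.

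By edgeR the log2 fold changes at 52 DPI were 1.12 (SE 0.99) for H2-Ab1, 1.11 (SE 0.83) for H2-Aa, 1.097 (SE 0.78) for H2-Eb1, 1.15 (SE 0.77) for H2-DMa, 1.23 (SE 0.93) for Cd74, 1.08 (SE 0.72) for Ciita and 0.34 (SE 0.76) for H2-DMb1, each with an adjusted p of 1.00. With the block the values at 52 DPI were within 0.05 of these, and H2-DMa had the smallest unadjusted p by edgeR's quasi-likelihood test (1.15, SE 0.45, unadjusted p = 0.0396, adjusted p = 1.00). All 7 class II genes were higher at 52 DPI (median 1.11), and the median was 0.83 to 1.29 with any 1 library left out. At 25 DPI 1 gene was higher and 6 lower (median -0.27), and with the block 6 were higher and 1 lower (0.37). Without control replicate 1 the 25 DPI log2 fold change of Cd74 was 2.01 instead of -0.28, and that of H2-Ab1 2.16 instead of -0.52. The difference between the times was positive for all 7 genes by edgeR (median 1.30, 0 called), for example 1.51 (SE 1.30) for Cd74.

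Markers of antigen-presenting cells and of T cells were mostly higher in the libraries labelled iDKO at 52 DPI, as the class II genes were. Cd207, the langerin of Langerhans cells, was at 36.7 and 4.92 (control) against 17.2 and 49.8 CPM (labelled iDKO) at 25 DPI, and at 28.8 and 47.6 against 65.2 and 68.0 CPM at 52 DPI. Of the 11 tested markers of the Langerhans cell list of 12, 1, 10, 10 and 11 were higher in the library labelled iDKO of the 4 pairs, in the order used above, and 6 did not overlap between labels at 52 DPI (Cd207, Mfge8, Ltc4s, Tmem176a, Csf1r and Runx3), with the libraries labelled iDKO above, against 11.9% of all genes. Their summed level was 235 to 1669 (control) against 422 to 781 CPM (labelled iDKO) at 25 DPI, and 471 to 650.2 against 807 to 825 CPM at 52 DPI. The most abundant marker in each library was Epcam, an adhesion molecule that is not particular to Langerhans cells, at 837 and 116 against 354 and 156 CPM at 25 DPI and at 324 and 211 against 272 and 412 CPM at 52 DPI, so it was lower in the library labelled iDKO of the 52 DPI replicate 1 pair. The macrophage and monocyte list summed to 15.5 to 15.9 (control) against 25.0 to 41.9 CPM (labelled iDKO) at 52 DPI, and 7 of its 8 tested markers, Adgre1 and Ccr2 among them, lay above control without overlap there (11.9% of all genes). At 25 DPI that list summed to 22.7 to 66.9 against 12.8 to 30.9 CPM, most of it Cd68 in control replicate 2 at 62.7 CPM. In bulk RNA, more cells of a type and more RNA per cell cannot be told apart, and the part of these cells in the class II levels was not tested.

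The list of T and NK cell markers was lower in the libraries labelled iDKO at 25 DPI, where it summed to 289 to 1231 CPM in control against 243 to 385 CPM, and higher at 52 DPI, with 193 to 367 against 471 to 819 CPM. At 52 DPI 15 of its 16 markers lay above control without overlap (11.9% of all genes), and at 25 DPI 5 of the 16 lay below (5.15%). Cd3e, a chain of the T cell receptor complex, was at 72.2 and 23.3 against 40.3 and 16.3 CPM at 25 DPI and at 59.8 and 17.5 against 75.2 and 99.6 CPM at 52 DPI. Cd3d, another chain of that complex, was called in the difference between times by DESeq2 with the replicate block (2.82, SE 0.73, adjusted p = 0.0414), at 82.2 and 9.67 against 22.2 and 5.81 CPM and then 16.1 and 6.66 against 23.1 and 38.6 CPM. Control 25 DPI replicate 1 held the highest sum of this list, of the Langerhans cell list and of the melanocyte list (403 CPM, against 51.1 to 79.5 in the other 7 libraries).

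Markers of other cells were present at different levels. The 12 markers of keratinocytes, the main cells of epidermis, summed to 28639.5 to 54102 CPM over the 8 libraries. Their pair medians were 0.77, -0.05, -0.09 and -0.80 on the log2 scale, so they were lower in the 52 DPI replicate 2 library labelled iDKO. B cell markers summed to 0.342 to 7.33 CPM, with the defining factor Pax5 at 0 counts in all 8 libraries, and endothelial markers to 1.93 to 4.06 CPM. Dermal fibroblast markers were at 8.30 to 52.8 CPM in 6 libraries and at 161 and 117 CPM in the replicate 2 libraries labelled iDKO at 25 and 52 DPI. The part of these cells in the members' levels was not tested.

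**Figure D4:**
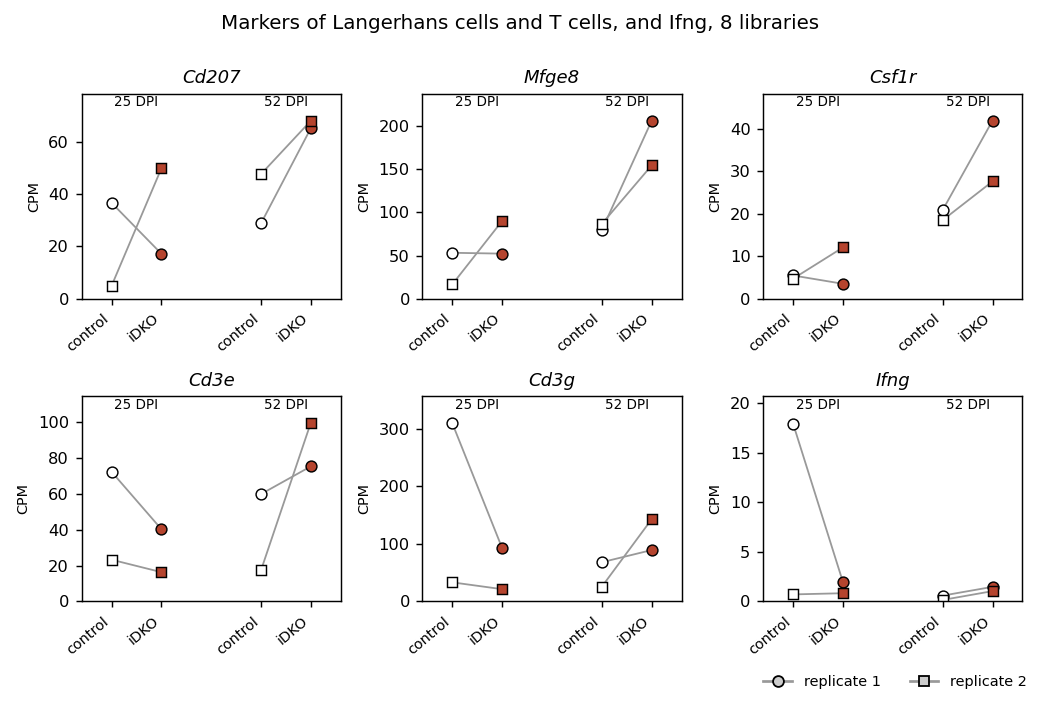
CPM (y axes, linear, each from 0) of Langerhans cell markers (Cd207, Mfge8, Csf1r), T cell receptor complex genes (Cd3e, Cd3g) and Ifng in the 8 libraries; circles are replicate 1, squares replicate 2, filled points are libraries labelled iDKO and grey lines join the pairs. At 52 DPI the libraries labelled iDKO lie above both control libraries in all 6 panels, and Ifng is highest in control 25 DPI replicate 1 at 17.9 CPM.

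Other genes of the class II pathway were mixed. By edgeR's log2 fold changes, 7 of the 11 tested genes of a list of 12 accessory genes were higher and 4 lower at 52 DPI (median 0.75), and 5 were higher and 6 lower at 25 DPI (-0.30). Of these 11 genes, 6 did not overlap between labels there with the libraries labelled iDKO above (H2-DMb2, H2-Ob, Ctss, Cd86, Cd40 and March1), against 11.9% of all genes. The protease gene Lgmn lay below control without overlap at 52 DPI (10.2% of all genes), at 20.8 and 25.2 (control) against 17.1 and 20.6 CPM (labelled iDKO), and H2-Oa and Ifi30 did so at 25 DPI (5.15%). Ctss, the protease that cuts Cd74, was at 7.41 and 6.11 (control) against 17.7 and 17.6 CPM (labelled iDKO) at 52 DPI, and at 26.2 and 2.52 against 7.76 and 6.13 CPM at 25 DPI. Cd40, the receptor for T cell help, was at 0.119 to 0.981 CPM in the 4 control libraries and was higher in the library labelled iDKO of all 4 pairs, at 1.60 and 0.871 and then 2.48 and 0.916 CPM. Cd86, a costimulatory ligand, was at 5.56 and 0.596 against 1.71 and 8.24 CPM, and then at 3.89 and 4.39 against 9.14 and 9.22 CPM. No gene of the list was called, and 1 of its 12 genes, H2-Ea-ps, had 0 counts in all libraries.

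Of the class I genes outside the members, Cd1d1, which presents lipids to NKT cells, was higher in the library labelled iDKO of all 4 pairs. It was low, at 1.77 and 0.715 (control) against 5.02 and 1.96 CPM (labelled iDKO) at 25 DPI, and at 1.30 and 0.392 against 3.30 and 4.77 CPM at 52 DPI. The labels did not overlap at either time, with those labelled iDKO above (5.39% and 11.9% of all genes). DESeq2 with the replicate block called it across both times (log2 fold change 1.85, SE 0.48, adjusted p = 0.0321), as it did 0.392% of all genes. Without the block edgeR gave 1.86 (SE 0.62, adjusted p = 1.00). The list of 14 genes that holds Cd1d1 also holds chaperones and the transcription factor genes Rfx5, Rfxap and Rfxank. Over this list 9 were higher and 5 lower at both 25 and 52 DPI (medians 0.08 and 0.03). The chaperone Pdia3 was lower in all 4 pairs, with log2 ratios of -0.41 to -0.02. The 8 constitutive proteasome genes had 2 higher and 6 lower at 25 DPI (median -0.37) and 7 higher and 1 lower at 52 DPI (0.12).

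The inducible genes did not form a single pattern. Irf1 and Icam1 were higher in the library labelled iDKO of both pairs at 25 DPI, and Cd274 and Gbp5 in all 4 pairs. The chemokines Cxcl9 and Cxcl10 were higher in some pairs and lower in others. For each of these genes the labels overlapped at both times, except for Irf1 at 25 DPI. At 25 DPI 2 of the 10 genes, Irf1 and Gbp7, had both libraries labelled iDKO above both control libraries (5.39% of all genes), and at 52 DPI 0 did (11.9%).

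Icam1, the adhesion molecule to which the leukocyte integrin LFA-1 binds (ENSMUSG00000037405, GRCm38 chromosome 9, 21015985 to 21028817, plus strand), was at 77.9 and 184 (control) against 160.5 and 584 CPM (labelled iDKO) at 25 DPI. At 52 DPI the control libraries had 302 and 240.2 CPM of Icam1, and those labelled iDKO 271 and 118 CPM. Within pairs the ratio was 2.05 and 3.17 at 25 DPI and 0.898 and 0.492 at 52 DPI, so both pairs pointed up at the first time and down at the second, while the labels overlapped at both times. The share of all genes with such a reversal was not counted. DESeq2 with the replicate block called the 25 DPI increase (log2 fold change 1.35, SE 0.33, adjusted p = 0.0138) and the difference between times (-1.95, SE 0.47, adjusted p = 0.0162), but not the 52 DPI value (-0.60, SE 0.33, adjusted p = 1.00). By edgeR with the block the 25 DPI value was 1.36 (SE 0.30, adjusted p = 0.601), and without the block 1.51 (SE 0.81, adjusted p = 1.00). The difference between times was -1.95 (SE 0.42, adjusted p = 0.793) by edgeR with the block. In this difference time and sex cannot be told apart.

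DESeq2 fits with the replicate block and 1 library left out were added after seeing the data. Under the block a library without its partner no longer bears on the label, so leaving out either library of a pair removes that pair. The 25 DPI log2 fold change of Icam1 was 1.66 without control or iDKO replicate 1 of that time, and 1.04 without control or iDKO replicate 2. Each of these values rests on the pair that remained at 25 DPI, with the spread taken from 52 DPI. The call at 25 DPI was lost without control or iDKO replicate 2 of that time, and without any of the 52 DPI libraries. The call of the difference was lost without control or iDKO replicate 2 of 52 DPI (-1.54 and -1.52). Without each of the other libraries the difference was -2.36 to -1.64. The exons of Icam1 overlap those of Gm47079 on the minus strand by 511 bp. In the replicate 2 libraries 3 to 10 counts of Icam1 lay on the first strand and 2220 to 19201 on the second, so in those libraries its reads came from its own strand, and in the replicate 1 libraries the strands cannot be told apart.

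Irf1, the transcription factor that carries the interferon gamma signal on to other genes (ENSMUSG00000018899, GRCm38 chromosome 11, 53770014 to 53778374, plus strand), was at 195 and 108 (control) against 285 and 581 CPM (labelled iDKO) at 25 DPI. At 52 DPI it was at 329 and 306 against 446 and 183 CPM, so the labels did not overlap at 25 DPI and the control values lay between the other 2 at 52 DPI. Its edgeR log2 fold change at 25 DPI was 1.51 (SE 0.68, unadjusted p = 0.0582, adjusted p = 1.00), the smallest unadjusted p of the 31 members there, and with the block DESeq2 gave 1.47 (SE 0.47, adjusted p = 0.134).

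Cd274, which encodes the checkpoint ligand PD-L1 (GRCm38 chromosome 19, 29367455 to 29388095, plus strand), was at 6.60 and 18.0 (control) against 10.4 and 30.6 CPM (labelled iDKO) at 25 DPI, and at 19.9 and 7.68 against 27.2 and 9.68 CPM at 52 DPI. The library labelled iDKO was the higher of each pair by 1.53, 1.68, 1.36 and 1.245 times, and the replicate numbers differed by more than that. Under the block its log2 fold change across both times was 0.55 (SE 0.17) by edgeR, with an adjusted p of 0.996 and of 0.554 by DESeq2. Socs1, the feedback inhibitor of the Jak kinases, was at 53.0 and 2.16 against 39.01 and 5.91 CPM and at 32.0 and 8.85 against 40.9 and 10.01 CPM, with ratios of 0.738, 2.41, 1.27 and 1.12.

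The guanylate-binding proteins, GTPases that act against intracellular microbes, were at different levels, and none was called. Gbp2 was at 20.7 and 49.8 (control) against 26.7 and 56.2 CPM (labelled iDKO) at 25 DPI, and at 49.1 and 16.8 against 105 and 14.7 CPM at 52 DPI. Gbp5 was at 0.523 and 1.15 against 0.912 and 3.12 CPM, and then at 2.00 and 0.392 against 6.88 and 0.654 CPM, on 5 to 219 counts per library. Gbp5 was the higher of all 4 pairs, with a log2 fold change across both times of 1.29 (SE 0.36) under the block (edgeR, adjusted p = 0.996; DESeq2, adjusted p = 0.363). Gbp3 was at 2.16 and 0.774 against 1.37 and 1.60 CPM, and then at 1.71 and 0.549 against 4.40 and 0.785 CPM. Gbp7 was at 10.002 and 10.1 against 13.0 and 10.3 CPM, and then at 17.8 and 6.19 against 30.99 and 5.82 CPM, so its order at 25 DPI rests on a ratio of 1.02 in the replicate 2 pair. All 4 of these genes had the highest of their 8 values in iDKO 52 DPI replicate 1.

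The chemokines Cxcl9 and Cxcl10, ligands of Cxcr3, a chemokine receptor on T cells, were low. Cxcl9 was at 25.8 and 4.19 (control) against 3.08 and 5.77 CPM (labelled iDKO) at 25 DPI, and at 4.56 and 2.98 against 9.14 and 3.14 CPM at 52 DPI. Its edgeR log2 fold change at 25 DPI was -1.75 (SE 0.96, adjusted p = 1.00), with ratios of 0.136 and 1.34 in the 2 pairs. Cxcl10 was at 25.8 and 6.29 against 20.1 and 12.3 CPM and at 14.8 and 8.93 against 27.9 and 7.72 CPM. Both were highest or near highest in control 25 DPI replicate 1, the library with the most T cell transcripts.

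**Figure D5:**
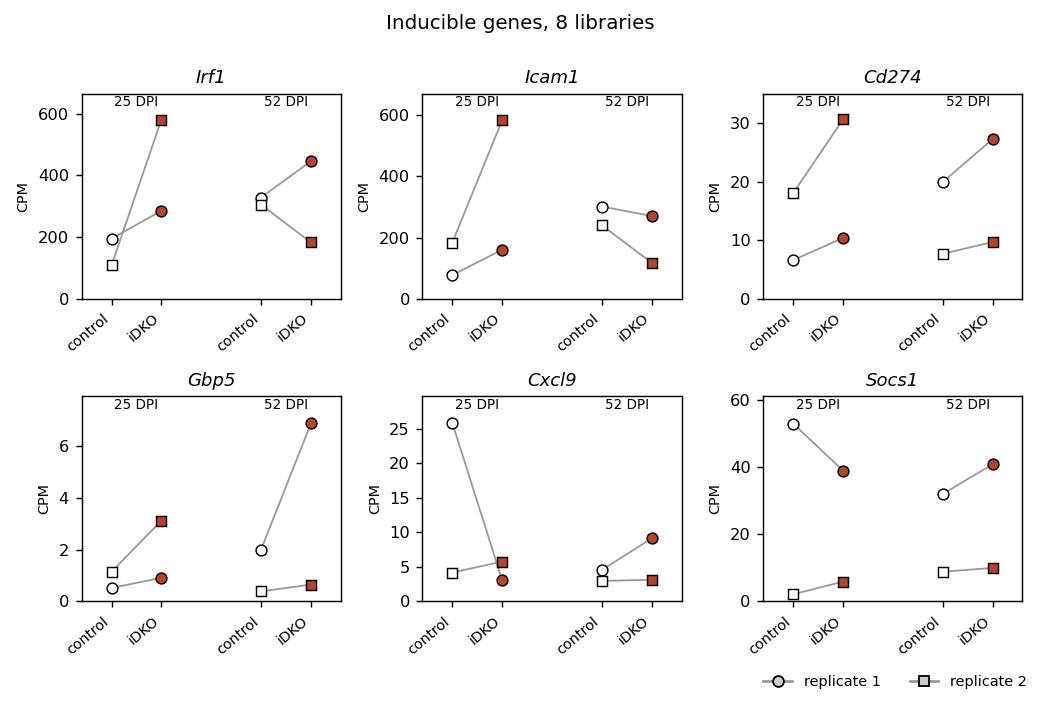
CPM (y axes, linear, each from 0) of 6 inducible genes in the 8 libraries; circles are replicate 1, squares replicate 2, filled points are libraries labelled iDKO and grey lines join the pairs. Icam1 is higher in both libraries labelled iDKO of their pairs at 25 DPI and lower at 52 DPI, and Cd274 and Gbp5 are higher in all 4 pairs.

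The genes of the signal itself showed no common direction. Ifng was at 17.9 and 0.715 (control) against 1.94 and 0.835 CPM (labelled iDKO) at 25 DPI, and at 0.593 and 0.157 against 1.48 and 1.05 CPM at 52 DPI, with edgeR log2 fold changes of -2.76 (SE 1.40) and 1.68 (SE 1.38), neither called. Its receptor chain Ifngr1 was at 217 and 359 against 362 and 235 CPM and at 284 and 216 against 212 and 119.6 CPM, so both libraries labelled iDKO lay below control at 52 DPI. Ifngr2 was at 31.3 to 86.2 CPM, Jak1 at 190.1 to 407 CPM and Jak2 at 20.8 to 107 CPM over the 8 libraries, and the labels overlapped at both times. Within pairs, Jak1 and Jak2 were higher in both libraries labelled iDKO at 25 DPI, with log2 ratios of 0.39 and 0.31 for Jak1 and 0.76 and 0.38 for Jak2, and between -0.09 and 0.10 at 52 DPI. Of the 13 genes of the signalling list 6 were higher and 7 lower at 25 DPI, and 7 higher and 6 lower at 52 DPI (medians -0.03 and 0.01). Stat2, a transcription factor of type I interferon signalling, was higher in the library labelled iDKO of all 4 pairs, by 0.09 to 0.94 on the log2 scale.

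Further genes known to be induced by interferons were mixed at 25 DPI, and at 52 DPI more of them were higher in the replicate 1 pair than in the replicate 2 pair. Of 16 tested genes of a list of 19 other interferon gamma targets, 6 were higher and 10 lower at 25 DPI (median -0.11), and 14 higher and 2 lower at 52 DPI (1.06). In the 52 DPI replicate 1 pair 15 were higher and 1 lower (median log2 ratio 0.86), and in the replicate 2 pair 9 and 7 (0.12). Gbp9 had the smallest p there, at 1.56 and 1.33 CPM in control against 6.85 and 4.91 CPM at 52 DPI (log2 fold change 2.02, SE 0.73, edgeR adjusted p = 1.00). Gbp4 was at 9.60 and 2.04 against 18.2 and 16.6 CPM. Of 16 tested genes of 17 of the type I interferon list, 8 were higher and 8 lower at 25 DPI (0.04), and 12 higher and 4 lower at 52 DPI (0.62). Their 52 DPI pairs had 13 higher and 3 lower in replicate 1 (0.65) and 8 and 8 in replicate 2 (0.10). In that list Ddx58, the RNA sensor RIG-I, was higher in all 4 pairs, at 16.7 and 21.4 against 19.0 and 32.4 CPM and at 22.8 and 16.4 against 34.9 and 37.5 CPM. None of the genes of these 2 lists was called in the genotype comparisons by edgeR or by DESeq2 with the block.

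Between the times, with both labels in an additive model, edgeR called 0 members and 0.0224% of all genes, and with the replicate block 0 members and 0.028%. DESeq2 with the replicate block called 1 member (1.43% of all genes), Psmb10, which was lower at 52 DPI (log2 fold change -0.98, SE 0.27, adjusted p = 0.0261). Of the class I genes 4 were higher and 10 lower at 52 DPI by edgeR (median -0.49, against -0.12 over all genes tested), of the class II genes 5 and 2 (0.25) and of the inducible genes 7 and 3 (0.14). Time and sex cannot be told apart in these values.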

How the data were processed

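Each library's deposited table held unnormalized gene counts in 3 columns, which by their values follow STAR's layout: regardless of strand (used here), first strand and second strand. The submitters' processing notes name the builds GRCm38 and mm10 and the tools STAR 2.5.2a, Trimmomatic 0.35, DESeq2 1.24.0 and FastQC 0.11.9. Libraries were made with a SMART-seq v4 kit per the labels' protocols. Their settings and the annotation release: not given in the sources used here.

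Counts were tested with edgeR 4.0.16 (R 4.3.3): filterByExpr on the 4 groups, TMM scaling, a quasi-likelihood fit with 1 mean per group to all 8 libraries (additive in time and label for both times together and for time), Benjamini-Hochberg adjustment over 17839 genes, called under 0.05. Fold changes are log2, with SE from the F statistic. In the fit with 1 mean per group, p values measure the spread between the 2 libraries of a group, which differ in strandedness and may differ in more than biology. The additive fits also take departures from additivity into that spread. With the block within time, p values measure how far pairs disagree. That fit leaves 2 residual degrees of freedom for the comparisons at each time and for the difference between times. Same-numbered libraries deviated together (correlations of 0.403 to 0.831 between the 4 groups), which was read as pairing, and fits with the replicate number within time as a block, by edgeR and DESeq2 1.42.0, stand beside the results they change. Other alternatives were DESeq2 scaling and test, limma-voom (limma 3.58.1), no filter, the second-strand column for replicate 2 and leaving out each library. Gene positions, exon lengths and overlaps came from GENCODE M21 (GRCm38). The scripts were tested on simulated data. Members and lists were chosen with earlier results of these data known. Values of every library are given for members chosen by role and for the 3 of each class with the smallest p in each genotype comparison, and Gbp7 was added after its values were seen.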

Additional observations from a re-analysis of the deposited data

Results flagged for a closer look

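Icam1 differed in direction between the times, and in this difference time and sex cannot be told apart. Both pairs were higher in the library labelled iDKO at 25 DPI (ratios of 2.05 and 3.17) and both were lower at 52 DPI (0.898 and 0.492), and the difference of the log2 fold changes, 52 minus 25 DPI, was -1.95 (SE 0.47) by DESeq2 with the replicate block, with an adjusted p of 0.0162. By edgeR without the block it was -1.99 (SE 1.13, adjusted p = 1.00). How many of all genes tested reversed direction in this way was not counted. Without control or iDKO replicate 2 of 52 DPI DESeq2 with the block gave -1.54 and -1.52, no longer called. These fits were added after seeing the data, and each rests on the replicate 1 pair alone at 52 DPI.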

How the results depend on the processing

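Counts of called genes depended on the tool and the block. Where edgeR called 0, 0, 0, 0 and 4 genes (25 DPI, 52 DPI, both times, difference, 52 versus 25 DPI), no filter on low counts gave 8, 25, 16, 19 and 184, and DESeq2 gave 2, 1, 8, 0 and 72. With the replicate block DESeq2 gave 96, 35, 70, 38 and 255, of them 1, 0, 0, 1 and 1 members, and edgeR gave 1 gene across both times and moved no other genotype count. For time the second-strand column gave 1, and leaving out 1 library gave 0 to 2. Leaving out 1 library gave medians of -0.71 to 0.71 and -0.49 to 0.48 for class I at 25 and 52 DPI, 0.83 to 1.29 for class II at 52 DPI, and 0.21 to 0.86 and -0.85 to 1.40 for the inducible genes at 25 and 52 DPI.

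At 25 DPI class II genes changed sign both under limma-voom without the block and with the block: under limma-voom, edgeR with the block and DESeq2 with the block, H2-Aa was at 0.40, 0.44 and 0.43, H2-Ab1 at 0.32, 0.37 and 0.37, H2-Eb1 at 0.35, 0.39 and 0.38, H2-DMa at 0.26, 0.17 and 0.16, and Cd74 at 0.38, 0.46 and 0.45. Leaving out 1 library gave -0.98 to 1.85 for H2-Aa, -1.38 to 2.16 for H2-Ab1, -0.87 to 1.66 for H2-Eb1, -1.004 to 1.35 for H2-DMa, -1.41 to 0.75 for H2-DMb1, -1.10 to 2.01 for Cd74, -0.86 to 0.82 for Ciita and -0.23 to 1.67 for Cd274. At 52 DPI it gave -0.0205 to 0.633 for H2-DMb1, -0.80 to 0.50 for Irf1, -1.20 to 0.0065 for Icam1, -0.52 to 1.27 for Cd274 and -0.89 to 3.26 for Gbp5. Irf1 at 52 DPI was at 0.0122 without the filter, and at 0.41 and 0.42 by DESeq2 with the block, an alternative chosen after seeing the data, without control or iDKO replicate 2. The cause was not tested. With a single library left in a group, that library is assumed to vary like the others. A count of 0 or a few, as for Gbp5 and Ciita, limits what the depth can show.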
